A study of Homo sapiens with 14 samples.

Results

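The TRIM genes are a family known mainly for its ubiquitin ligases. Of these genes 54, represented by 124 probe sets, were followed here across an endocrine-resistant breast cancer cell line. They were all genes whose symbol is TRIM followed only by digits, on probe sets annotated with that single symbol, with TRIM24 left out, and they stood among 19775 genes and 54613 probe sets on the array. Each gene was read from its brightest probe set, the one with the highest mean over the 14 arrays. In this family 19 genes had 1 probe set and 35 had several, up to 6 for TRIM2.

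The arrays were Affymetrix HG-U133 Plus 2.0 chips hybridised with RNA of LY2 cells, a tamoxifen-resistant line derived from MCF-7. All cells had been maintained with 10 nM 4-hydroxytamoxifen, the active metabolite of the estrogen receptor antagonist tamoxifen, and were then kept for 72 hours without it in phenol red-free medium with charcoal-stripped serum. They were transfected with 40 nM of 1 siRNA product against SRC-1 or of a scrambled control siRNA, and after 24 hours received 100 nM 4-hydroxytamoxifen or 0.01% ethanol for 2 hours. SRC-1 is a nuclear receptor coactivator encoded by NCOA1. The control siRNA groups held 4 untreated and 4 tamoxifen arrays, and the SRC1 siRNA groups 4 untreated arrays and 2 tamoxifen arrays, which carried the replicate numbers 1 and 3. The labels call the replicates biological but say nothing of separate cultures, so p-values measure the spread between these arrays, which may be technical. Values are log2 signals, in which a difference of 1 is a doubling, and each change is given with the standard error of the limma fit.

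Most TRIM proteins, but not all, carry a RING domain, which recruits a ubiquitin-loaded E2 enzyme. B-box and coiled-coil domains follow, and often a variable C-terminal domain that recognises the substrate. Many TRIM proteins act in antiviral defence: TRIM25 modifies the RNA sensor RIG-I, TRIM21 is a cytosolic antibody receptor, and TRIM22 is a strongly interferon-induced restriction factor. TRIM25 was also identified early on as an estrogen-responsive finger protein, and TRIM16 as an estrogen-responsive B-box protein. Type I interferons raise such genes through the interferon-stimulated response element (ISRE) in their promoters.

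Promoter sequence is shown for interferon-induced members, because the ISRE is the element through which interferon acts on such genes. These members include TRIM22, which had the largest change between siRNA groups among the 54 genes. RefSeq promoter windows on GRCh38.p14, running from 250 bases before to 50 bases after a gene's start, were matched for 43 of the 54 genes, with 58 windows in all. TRIM22 itself was not among the genes matched. The ISRE core was searched on both strands as the letters GAAA, then 2 bases of any kind, then GAAA again. It was found in 5 of 8 matched genes of an interferon-induced list (TRIM5, TRIM14, TRIM21, TRIM26 and TRIM69), in 3 of the 35 other matched TRIM genes (TRIM2, TRIM16 and TRIM44), and in 4.38% of all 27305 genes with a window. Counted by window, it was in 8 of the 58 TRIM windows and in 3.57% of all 35116 windows. The stretches with an ISRE match in the 5 listed genes are shown 5′ to 3′ on each gene's strand, with capitals marking the bases of the match. They lie at chr11:5685075-5685174 (minus strand) for TRIM5, chr9:98119223-98119322 (minus) for TRIM14, chr15:44736428-44736527 (plus) for TRIM69, chr6:30213537-30213636 (minus) for TRIM26 and chr11:4393663-4393692 (minus) for TRIM21.
TRIM5: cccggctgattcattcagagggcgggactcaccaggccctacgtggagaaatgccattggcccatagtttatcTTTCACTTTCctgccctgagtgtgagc
TRIM14: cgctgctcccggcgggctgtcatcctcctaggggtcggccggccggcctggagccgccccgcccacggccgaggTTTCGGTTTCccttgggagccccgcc
TRIM69: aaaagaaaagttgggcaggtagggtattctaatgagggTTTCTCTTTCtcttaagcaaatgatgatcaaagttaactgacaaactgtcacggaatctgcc
TRIM26: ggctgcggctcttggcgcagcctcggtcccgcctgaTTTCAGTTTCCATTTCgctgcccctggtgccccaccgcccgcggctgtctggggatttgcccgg
TRIM21: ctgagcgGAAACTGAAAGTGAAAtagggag

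In TRIM5, TRIM14 and TRIM69 the match lay within 100 bases before the start, at positions -27 to -18, -26 to -17 and -62 to -53. In TRIM26 a pair of overlapping matches ran from -194 to -179. In TRIM21 a pair of overlapping matches ran from 18 to 33 after the start. The matches of TRIM44, TRIM16 and TRIM2, not shown, lay at -35 to -26, -80 to -71 and -217 to -208. On their brightest probe sets TRIM44, TRIM16 and TRIM2 passed in no comparison. Of the genes of the interferon-induced list with a match, only TRIM26 passed on its brightest probe set. The 100 bases before the starts of TRIM25 and TRIM38, of the same list, and of TRIM7, the member called in every setting tried, held no match, and are shown for contrast. They lie at chr17:56914050-56914149 (minus), chr6:25962702-25962801 (plus) and chr5:181205197-181205296 (minus).
TRIM25: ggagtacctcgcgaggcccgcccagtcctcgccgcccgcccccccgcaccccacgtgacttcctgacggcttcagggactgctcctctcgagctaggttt
TRIM38: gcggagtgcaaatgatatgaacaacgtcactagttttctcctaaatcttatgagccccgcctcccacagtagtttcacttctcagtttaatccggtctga
TRIM7: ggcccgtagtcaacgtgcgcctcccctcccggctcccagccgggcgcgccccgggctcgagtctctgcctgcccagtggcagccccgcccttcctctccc

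The siRNA target was measured first as a check of the labels. NCOA1, averaged over its 4 probe sets, was 8.997 ± 0.25 (SD, n = 4) with control siRNA and 7.70 ± 0.36 (SD, n = 4) with SRC1 siRNA in untreated cells, 59.4% lower on the linear scale (exact two-sided permutation test, p = 0.0286, the minimum over 70 regroupings). In the tamoxifen groups NCOA1 read 9.06 ± 0.18 (SD, n = 4) and 7.74 ± 0.25 (SD, n = 2), 59.97% lower (exact two-sided permutation test, p = 0.0667, the minimum over 15 regroupings). Luminal epithelial markers averaged 12.28 to 12.39 on the 14 arrays, and 8 of 8 had a mean above the median probe-set signal of 3.47. Immune markers averaged 2.02 to 2.38, and 0 of 6 had a mean above that median. Fibroblast markers averaged 3.59 to 3.74, with 1 of 7 above the median (COL1A1), and endothelial markers 2.48 to 2.83, with 1 of 6 above it. Of these markers KRT8 rose (0.31) and CDH1 fell (change -0.27) between siRNAs in untreated cells, and ITGAM rose (0.86) and CDH5 fell (change -0.36) in tamoxifen. CDH5 lay below the median signal. ITGAM read 4.11 on SRC1 siRNA tamoxifen replicate 1, above that median, and 3.19 on replicate 3, below it. The part of these markers in the results was not tested. Array medians ranged from 3.44 to 3.51.

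In control cells without tamoxifen the members' signals ran from 1.60 to 13.22. The probe sets of 18 genes read 10 or more, those of 14 read from 7 to under 10, those of 7 from 4 to under 7 and those of 15 under 4; 39 genes were above the median signal of all probe sets and 15 below. Probe sets differ in how well they bind, so this order describes signals, not transcript amounts. The brightest were those of TRIM37, a centrosome regulator (13.22 ± 0.02, SD, n = 4), TRIM33, a regulator of SMAD signalling (13.00 ± 0.07), TRIM16 (12.41 ± 0.04), TRIM8 (11.83 ± 0.04) and TRIM28, the KAP1 corepressor of transposable elements (11.57 ± 0.09). Neighbours among these 5 were separated by more than their SDs. The changes of these 5 genes between groups did not exceed 0.15 in size in any of the 4 comparisons and none passed the test. The dimmest were TRIM55, a muscle RING finger gene (2.07), TRIM10 (2.07) and TRIM58, an erythroid gene (1.60).

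**Figure D1:**
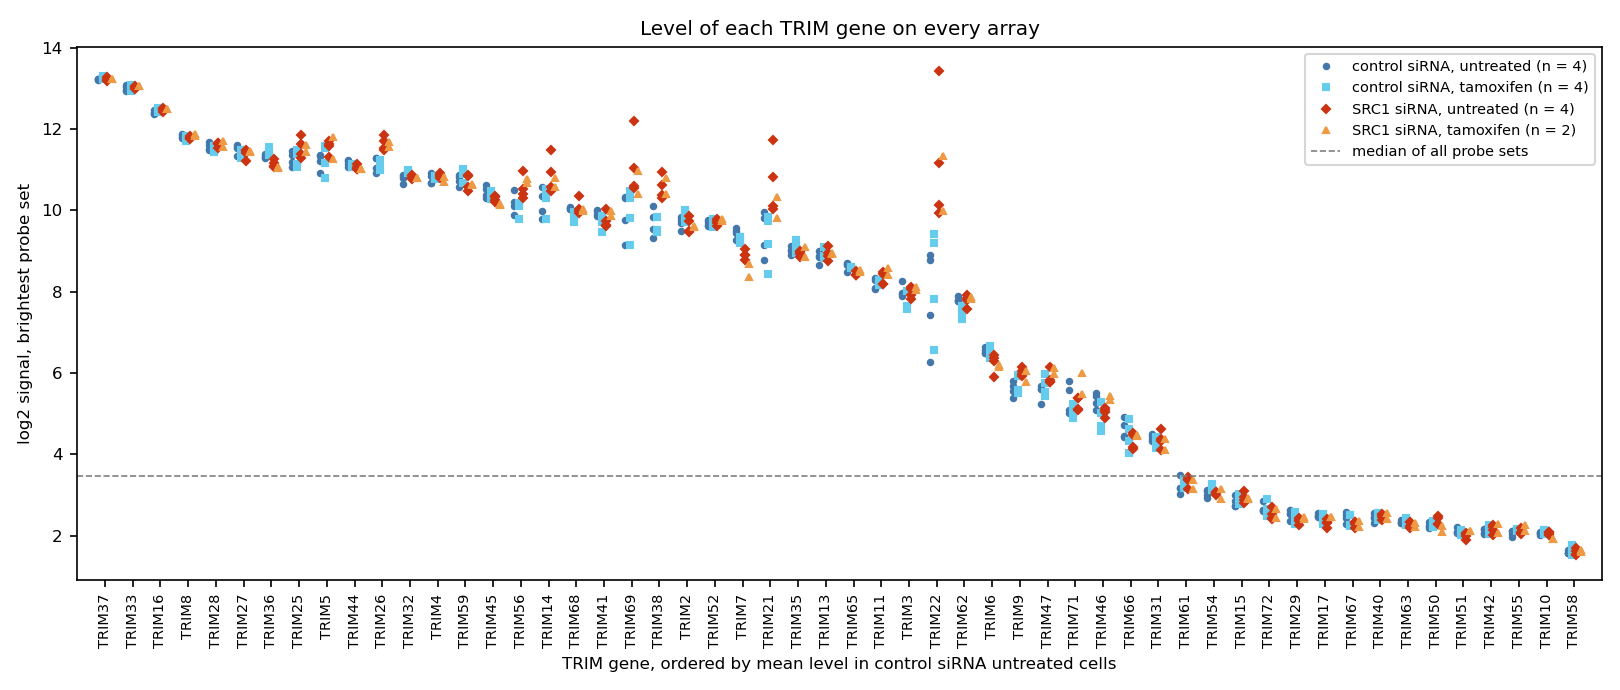
Log2 signal of the brightest probe set of each of the 54 TRIM genes on every array (points, coloured by group, 14 per gene), ordered by the mean over the 4 untreated control siRNA arrays, with a dashed line at the median probe-set signal. These means run from 1.60 for TRIM58 to 13.22 for TRIM37, and 15 genes lie below the median probe-set signal of 3.47.

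By C-terminal domain, 20 of 27 PRY-SPRY genes, which include the antiviral TRIM5, TRIM21, TRIM22 and TRIM25, were above the median signal. So were 4 of 4 genes with NHL repeats (among them TRIM71 and TRIM2), 3 of 3 with a PHD-bromodomain (TRIM28, TRIM33 and TRIM66), 2 of 2 transmembrane genes (TRIM13 and TRIM59), 3 of 4 microtubule-associated COS genes (TRIM9, TRIM36 and TRIM46, but not TRIM67) and 5 of 8 with no further C-terminal domain. The muscle RING fingers TRIM54, TRIM55 and TRIM63 were all below it, at 2.07 to 3.04.

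In untreated cells TRIM22, TRIM38, TRIM26 and TRIM9 rose and TRIM7 and TRIM65 fell with SRC1 siRNA against control siRNA. These 6 of 54 genes (11.1%) compare with 11.9% of all genes called in this comparison at a limma adjusted p under 0.05, a share near that of the whole array. By direction, 5.97% of all genes rose and 5.98% fell. Since 1 siRNA product was used, loss of SRC-1 and any other effect of that siRNA cannot be told apart. TRIM22, TRIM26 and TRIM38 belong to the interferon-induced list of 9 measured members (TRIM5, TRIM14, TRIM21, TRIM22, TRIM25, TRIM26, TRIM38, TRIM56 and TRIM69, of 10 listed). In that list 3 rose and 0 fell, and the median change was 0.69, while all genes had a median change of 0.00. The other 45 TRIM genes had a median change of -0.03, with 1 higher and 2 lower. All 9 listed genes had a change above 0, from 0.26 in TRIM25 to 3.32 in TRIM22, but 6 of them did not pass. Without the 3 arrays numbered 4, 2 of the 9 rose and the median was 0.39.

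TRIM22 read 7.42, 8.78, 8.91 and 6.27 on the untreated control arrays of replicates 1 to 4, and 11.15, 9.94, 10.14 and 13.42 on the untreated SRC1 siRNA arrays. The groups did not overlap, and the array of replicate 4 was the lowest of the controls and the highest of the SRC1 siRNA arrays. The change was 3.32 ± 0.83 (SE), 9.99-fold (limma, adjusted p = 0.0225). It no longer passed without control replicate 1 (3.18, adjusted p = 0.0569), without control replicate 4 (2.80, adjusted p = 0.0654) or without SRC1 siRNA replicate 1 (3.32, adjusted p = 0.0528). With the 3 arrays numbered 4 left out it was 2.04 (adjusted p = 0.0442), and the call was lost under the replicate block (adjusted p = 0.0741) and under a trended robust fit (0.051).

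TRIM26, a ligase that modulates interferon-beta induction, read 11.05, 11.29, 11.28 and 10.91 on the untreated control arrays and 11.71, 11.53, 11.49 and 11.85 on the SRC1 siRNA arrays. Every SRC1 siRNA array was above every control array. It rose by 0.51 ± 0.10 (limma, adjusted p = 0.00654; with the replicate block, 0.0354). TRIM38, a regulator of innate immune signalling, read 9.33, 9.84, 10.12 and 9.55 in controls and 10.95, 10.37, 10.31 and 10.62 with SRC1 siRNA, again without overlap. It rose by 0.85 ± 0.18 (limma, adjusted p = 0.00869; with the replicate block, 0.0383), and without the 3 arrays numbered 4 the change was 0.78 (adjusted p = 0.0567).

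TRIM21 read 9.15, 9.82, 9.97 and 8.78 in untreated controls and 10.83, 10.10, 10.03 and 11.73 with SRC1 siRNA. The groups did not overlap, with the smallest distance between control replicate 3 and SRC1 siRNA replicate 3. The change of 1.24 ± 0.40 did not pass (limma, adjusted p = 0.0649). It did pass without tamoxifen control replicate 4, which contributes only to the shared spread (adjusted p = 0.0473), and when tested among brighter probe sets only (adjusted p = 0.0493), while without the 3 arrays numbered 4 the change was 0.68 (adjusted p = 0.174). TRIM69, an interferon-induced inhibitor of vesicular stomatitis virus, read 9.76, 10.31, 10.32 and 9.15 in controls and 11.04, 10.54, 10.61 and 12.18 with SRC1 siRNA, a change of 1.21 ± 0.38 (adjusted p = 0.0623) that was 0.60 without the arrays numbered 4. TRIM25 read 11.19, 11.35, 11.46 and 11.06 in controls and 11.62, 11.38, 11.28 and 11.84 with SRC1 siRNA. These groups overlapped, and the change of 0.26 ± 0.13 did not pass (limma, adjusted p = 0.224). Without the arrays numbered 4 it was 0.09 (adjusted p = 0.699). TRIM14, an adaptor of the mitochondrial signalling protein MAVS, changed by 0.69 (adjusted p = 0.0754; 0.36 without the arrays numbered 4), the retroviral restriction factor TRIM5 by 0.35 (0.227) and TRIM56, a ligase of nucleic acid sensing, by 0.37 (0.138).

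**Figure D2:**
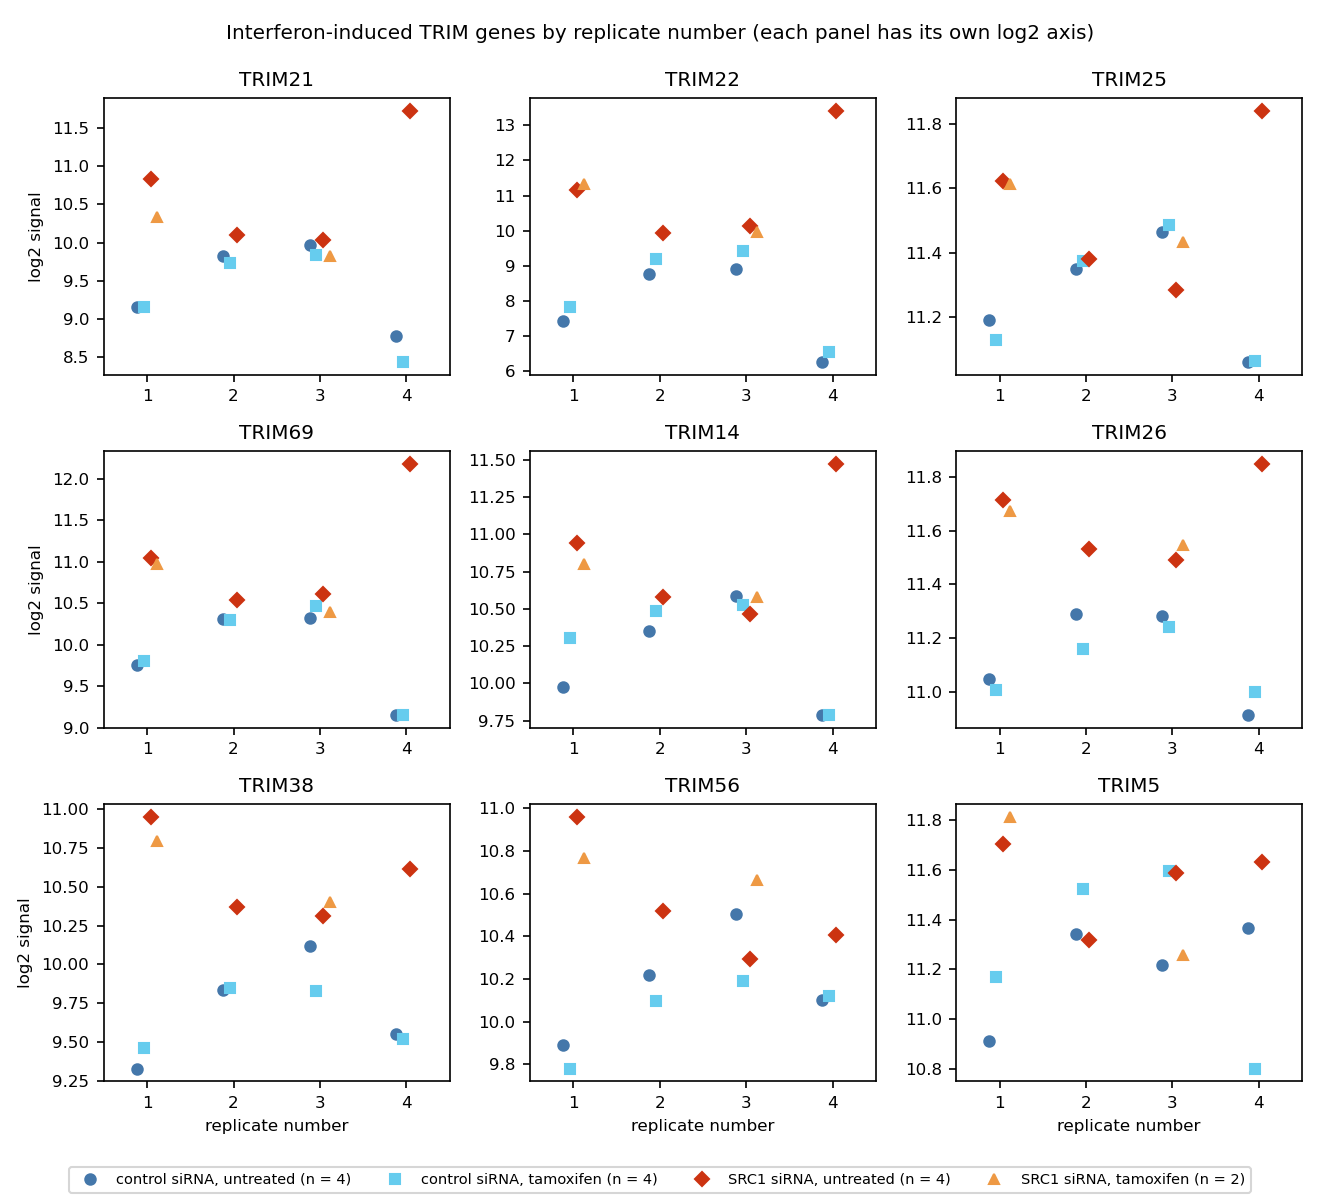
Log2 signal of the 9 interferon-induced TRIM genes on every array, against the replicate number of the array, with 1 point per array coloured by group (n = 4, 4, 4 and 2) and a separate axis for each gene. TRIM21, TRIM22, TRIM26, TRIM38 and TRIM69 show no overlap between control and SRC1 siRNA arrays in untreated cells. Among untreated arrays, replicate 4 is the lowest control and the highest SRC1 siRNA point in TRIM14, TRIM21, TRIM22, TRIM25, TRIM26 and TRIM69.

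Outside the interferon list, 1 gene rose (TRIM9) and 2 fell (TRIM7 and TRIM65). TRIM7, which binds the glycogen primer glycogenin, read 9.58, 9.50, 9.27 and 9.45 in untreated controls and 8.90, 8.77, 8.91 and 9.05 with SRC1 siRNA. The groups did not overlap and TRIM7 fell by 0.54 ± 0.09 (limma, adjusted p = 0.00214; with the replicate block, 0.018). It passed in all 23 alternative settings tried in both knockdown comparisons. Another of its 3 probe sets fell too (change -0.44, adjusted p = 0.0276).

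TRIM9, a neuronal ligase of netrin-dependent branching, read 5.67, 5.55, 5.38 and 5.79 in controls and 5.92, 5.98, 6.14 and 6.05 with SRC1 siRNA, so the groups were apart. It rose by 0.42 ± 0.11 (limma, adjusted p = 0.0315), and the call was lost without control replicate 1, 2 or 3 (adjusted p = 0.0514, 0.0759 and 0.0839), without SRC1 siRNA replicate 2, 3 or 4 (0.061, 0.0811 and 0.0601) and with the replicate block (0.106). Averaged over its 2 probe sets the change was 0.17 (adjusted p = 0.173). TRIM65, a ligase for the RNA sensor MDA5, read 8.70, 8.64, 8.48 and 8.68 in controls and 8.41, 8.40, 8.51 and 8.42 with SRC1 siRNA. Replicate 3 of each group lay nearest the other group, and they overlapped. It fell by 0.19 ± 0.05 (limma, adjusted p = 0.0369), a call lost without control replicate 1, 2 or 4 (adjusted p = 0.0977, 0.0868 and 0.0984), without SRC1 siRNA replicate 1, 2 or 4 (0.0898, 0.0939 and 0.0743) and with the replicate block (0.158). It was lost in 12 of 23 alternatives in all, and averaged over its 2 probe sets the change was -0.07 (adjusted p = 0.446).

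The untreated groups did not overlap for 12 of the 54 genes (22.2%), 7 higher and 5 lower with SRC1 siRNA, while 18.4% of all genes showed no overlap. Of these, 5 of the 7 higher were in the interferon-induced list. Counting genes with the replicate number as a block, 3 TRIM genes passed, TRIM26, TRIM38 and TRIM7, against 4.76% of all genes. Without the 3 arrays numbered 4, 4 passed, TRIM9, TRIM22, TRIM26 and TRIM7, against 9.64%.

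The difference between siRNAs within a replicate number was uneven. For TRIM22 it was 3.73, 1.17, 1.23 and 7.15 for numbers 1 to 4, and for the mean of the 9 interferon-induced TRIM genes 1.36, 0.33, 0.20 and 2.02. TRIM21 gave 1.68, 0.29, 0.06 and 2.95, and TRIM26 0.66, 0.24, 0.21 and 0.93. The mean of a reference list of interferon response genes differed by 2.23, 0.89, 0.65 and 4.05, and IFNB1, the gene of interferon-beta, by 6.45, 2.67, 1.76 and 5.04. NCOA1 on its brightest probe set differed by -0.82, -1.56, -1.36 and -0.64. Numbers 1 and 4 had the larger TRIM22 and interferon reference differences and the smaller NCOA1 differences, and the relation between them was not tested. The mean of both untreated arrays of a number varied less than this difference for TRIM22, spanning 9.29 to 9.84. That range of 0.556 was still the widest of the 54 genes. Over the 54 genes the range of these means was a median of 0.126, and the range of the differences a median of 0.434, the larger of the 2 in 53 genes. A difference between independent arrays varies more than their mean does, so this count cannot by itself show a mirrored spread. No source used here says whether a replicate effect was removed before deposit. Arrays treated that way would not be independent, and p-values that take them as independent would not hold as stated. The cause of the mirrored spread of genes such as TRIM22 was not tested.

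The 3 genes whose pattern over the 14 arrays was most like that of TRIM21 were TRIM69 (Pearson r = 0.987), TRIM14 (0.975) and TRIM22 (0.968). For TRIM22 they were TRIM69 (0.986), TRIM14 (0.971) and TRIM21 (0.968), and for TRIM25 TRIM14 (0.954), TRIM69 (0.948) and TRIM21 (0.948). The points share siRNA groups and replicate numbers, so the coefficients are a description only. The spread about the group means was largest in TRIM22 (SD 1.36), TRIM21 (0.65) and TRIM69 (0.62), against a family median of 0.118.

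With tamoxifen, TRIM26, TRIM38, TRIM56, TRIM62 and TRIM71 rose and TRIM7, TRIM36 and TRIM10 fell with SRC1 siRNA against control siRNA. These 8 of 54 genes (14.8%) compare with 15.2% of all genes called (6.49% higher and 8.71% lower), and only 2 SRC1 siRNA arrays were available. In the interferon-induced list 3 rose and 0 fell, with a median change of 0.67 (all genes -0.03), and the other 45 TRIM genes had a median of 0.00, with 2 higher and 3 lower. TRIM22 read 7.82, 9.19, 9.41 and 6.57 on the control arrays and 11.33 and 9.97 on the SRC1 siRNA arrays, without overlap, but its change of 2.41 ± 1.02 did not pass (limma, adjusted p = 0.134). The groups did not overlap for 24 of the 54 genes (44.4%), against 38.9% of all genes.

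TRIM26 read 11.01, 11.16, 11.24 and 11.00 with control siRNA and tamoxifen and 11.67 and 11.54 with SRC1 siRNA. The rise of 0.51 ± 0.12 (limma, adjusted p = 0.018) did not pass without SRC1 siRNA replicate 1 (0.44, adjusted p = 0.148) or replicate 3 (0.57, adjusted p = 0.0516), nor with the replicate block (0.102). TRIM38 read 9.46, 9.85, 9.83 and 9.52 with control siRNA and 10.79 and 10.40 with SRC1 siRNA. It rose by 0.93 ± 0.22 (limma, adjusted p = 0.0147), a call lost without SRC1 siRNA replicate 1 (0.74, adjusted p = 0.157) and with the replicate block (0.089). TRIM56 read 9.78, 10.09, 10.19 and 10.12, then 10.77 and 10.66. It rose by 0.67 ± 0.18 (limma, adjusted p = 0.0289), a call lost without control replicate 1 (0.58, adjusted p = 0.0587), without SRC1 siRNA replicate 1 (0.62, adjusted p = 0.174) or 3 (0.72, adjusted p = 0.0891) and with the replicate block (0.132).

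TRIM7 read 9.34, 9.35, 9.24 and 9.19 with control siRNA and tamoxifen and 8.35 and 8.69 with SRC1 siRNA. It fell by 0.76 ± 0.11 (limma, adjusted p = 0.00132; with the replicate block, 0.0236), as in the untreated cells, in which other arrays were compared. TRIM36, a ligase associated with microtubules and the spindle, read 11.41, 11.42, 11.36 and 11.56, then 11.05 and 11.06. It fell by 0.39 ± 0.07 (limma, adjusted p = 0.00491), a call lost without SRC1 siRNA replicate 1 (adjusted p = 0.0541) and with the replicate block (0.0628).

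TRIM62, a polarity regulator of mammary epithelium, read 7.65, 7.44, 7.33 and 7.62, then 7.88 and 7.83. It rose by 0.34 ± 0.10 (limma, adjusted p = 0.0392), and this was lost without control tamoxifen replicate 2 or 3, without control untreated replicate 2 or without either SRC1 siRNA tamoxifen array (adjusted p = 0.0829, 0.0817, 0.0515, 0.207 and 0.111). It was lost in 10 of 23 alternatives in all, and averaged over its 3 probe sets the change was 0.14 (adjusted p = 0.277). TRIM71, a developmental RNA-binding ligase targeted by let-7, read 5.09, 5.23, 5.03 and 4.91, then 5.99 and 5.50. It rose by 0.68 ± 0.20 (limma, adjusted p = 0.0403), a call lost without any of control tamoxifen replicates 1 to 4 (adjusted p = 0.0621, 0.0507, 0.0737 and 0.0748) or SRC1 siRNA replicate 1, where the change was 0.43 (0.348). TRIM10, an erythroid gene, fell by 0.17 ± 0.05 (limma, adjusted p = 0.0422) at a signal of 2.07 in untreated controls, below the median signal, and its adjusted p rose above the threshold in 17 of the 22 alternatives that kept its dim probe set.

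With the replicate number as a block 1 TRIM gene passed in tamoxifen, TRIM7, against 2.7% of all genes. Without the 3 arrays numbered 4, 6 passed, TRIM26, TRIM38, TRIM62, TRIM71, TRIM7 and TRIM36, against 13.1%. Without SRC1 siRNA tamoxifen replicate 1, 1 passed, and without replicate 3, 4 passed.

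**Figure D3:**
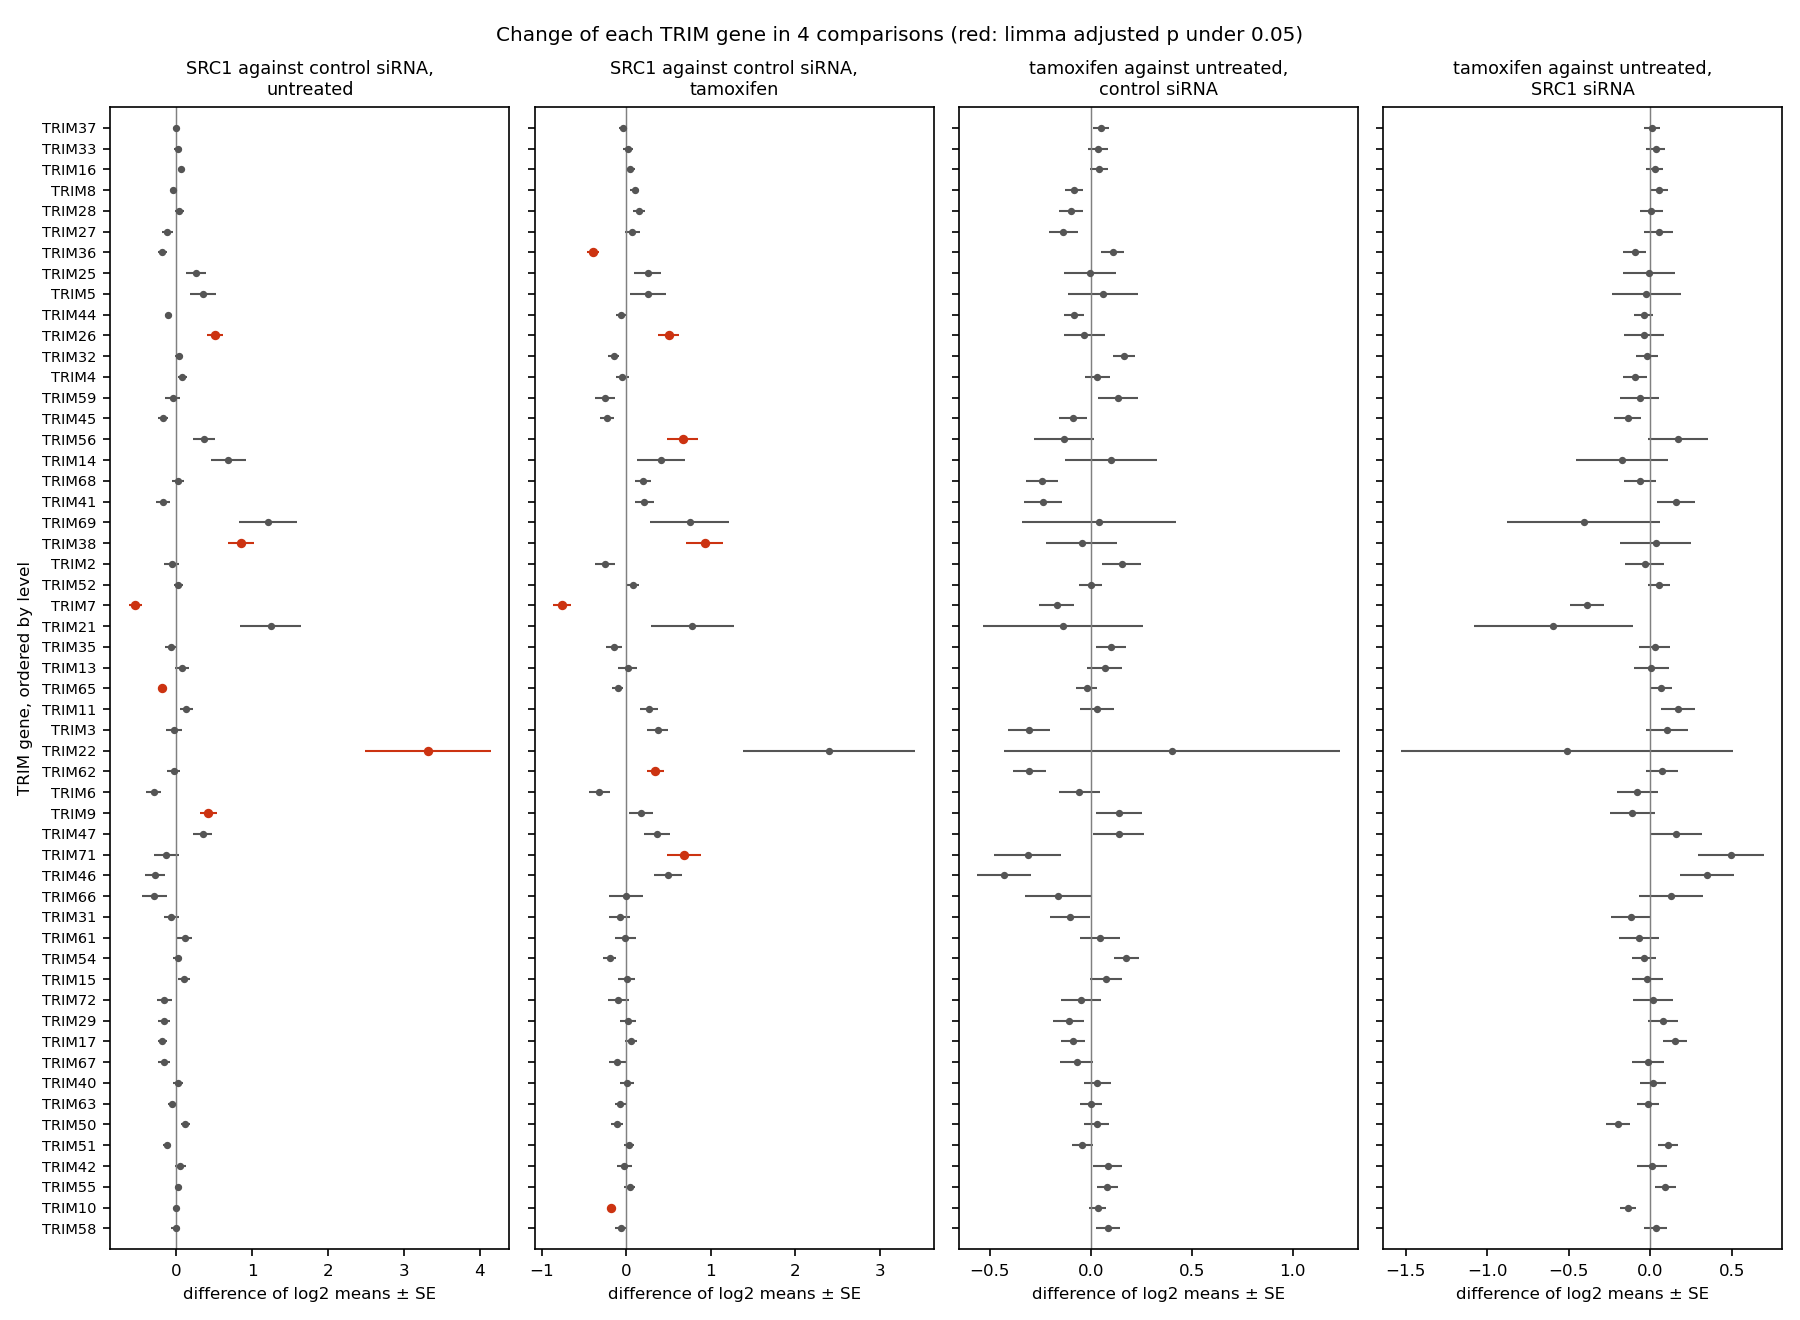
Log2 change of each TRIM gene in 4 comparisons, SRC1 against control siRNA in untreated cells and in tamoxifen, and tamoxifen against untreated cells with each siRNA, with standard errors from the limma fit over 14 arrays and red for an adjusted p under 0.05. TRIM22 has the largest change in untreated cells at 3.32, the 9 interferon-induced members lie above 0 in both siRNA comparisons, and 0 members passed for tamoxifen.

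**Figure D4:**
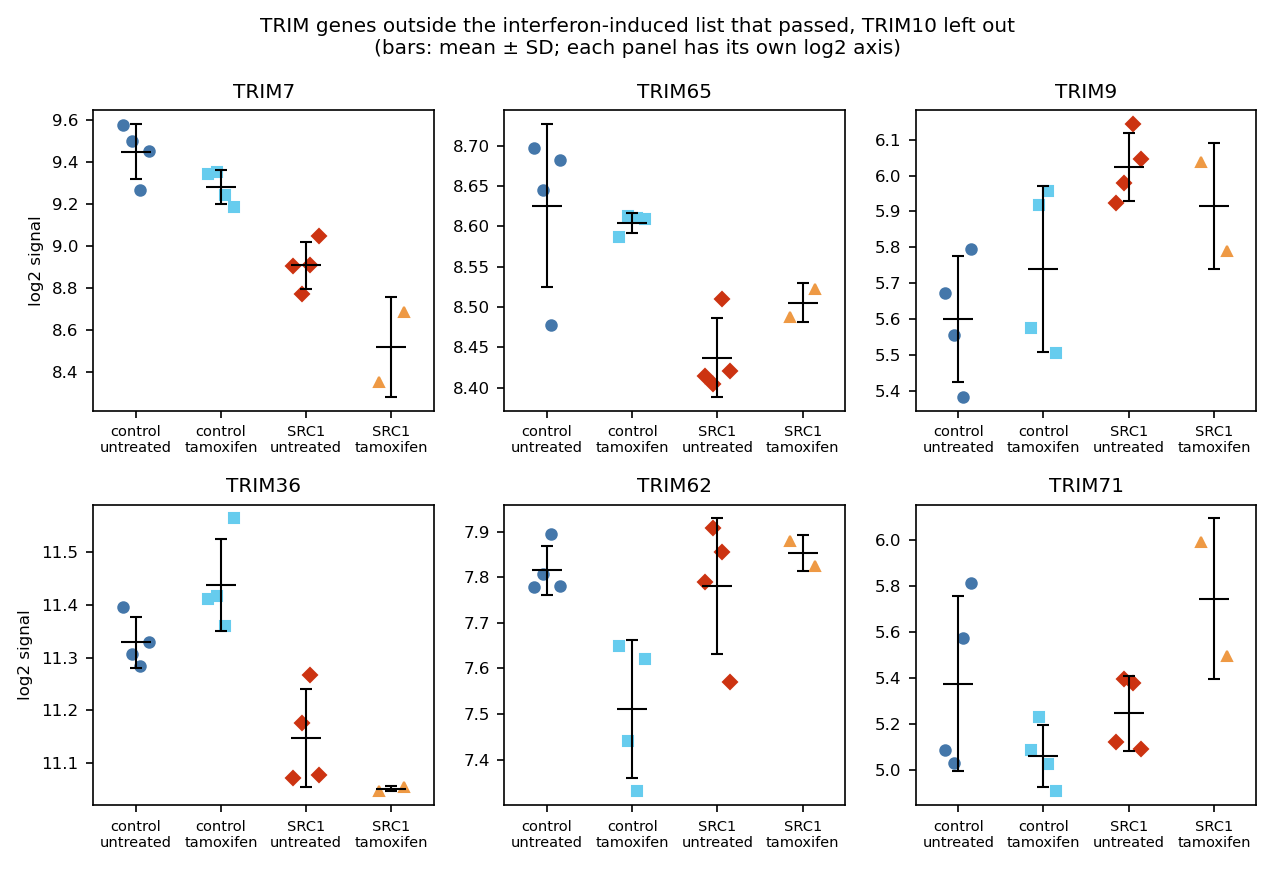
Log2 signal on every array, by group, of TRIM7, TRIM65, TRIM9, TRIM36, TRIM62 and TRIM71, with bars for the mean and SD and a separate axis for each gene. TRIM7 is lower on every SRC1 siRNA array than on every control array of the same treatment.

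Tamoxifen for 2 hours changed no TRIM gene past the threshold. With control siRNA, 0 of 54 passed (limma; 7 at an unadjusted p under 0.05), against 0.248% of all genes, and the smallest adjusted p was 0.117, for TRIM62 (change -0.30). The largest change in size was 0.43. With SRC1 siRNA, 0 passed (limma; 4 at an unadjusted p under 0.05), against 0.819% of all genes (0.334% higher and 0.485% lower), with the smallest adjusted p of 0.0844 for TRIM7 (change -0.39) and the largest change 0.60. TRIM25 read 11.13, 11.37, 11.49 and 11.07 with control siRNA and tamoxifen, and its change of 0.00 ± 0.13 had an adjusted p of 0.995. TRIM22 did not pass, but with control siRNA it read higher with tamoxifen within every replicate number. The differences were 0.40, 0.41, 0.51 and 0.30 for numbers 1 to 4. With SRC1 siRNA they were 0.18 for number 1 and -0.17 for number 3. The interaction of siRNA and tamoxifen passed in 0 of 54 (limma; 10 at an unadjusted p under 0.05), against 0.172% of all genes, with a smallest adjusted p of 0.107. A difference between the knockdown effects with and without tamoxifen was therefore not shown for any member.

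A gene's other probe sets gave some different calls. Of 70 probe sets that were not the brightest, 14 passed between siRNAs in untreated cells, against 10.4% of all probe sets, and 8 in tamoxifen, against 13.5%. In untreated cells other probe sets rose for 3 interferon-induced genes whose brightest probe set did not pass: for TRIM14 by 0.95 (limma, adjusted p = 0.0318) and 0.40 (0.0145), for TRIM69 by 0.82 (0.0311) and for TRIM5 by 0.51 (0.0132), the last at a mean signal of 3.13, below the median. For TRIM38 another probe set rose by 0.87 in untreated cells (adjusted p = 0.00295) and by 1.16 in tamoxifen (0.0022). A dimmer probe set passed against the sign of the brightest, which itself did not pass, for TRIM4 in tamoxifen (0.53 against -0.04), for TRIM8 in untreated cells (0.16 against -0.04) and for TRIM29 in untreated cells (0.23 and 0.15 against -0.16). Even the brightest TRIM29 probe set read only 2.26 to 2.63 over the arrays, below the median signal.

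The partners of the RIG-I pathway in which TRIM25 acts were measured alongside. Their median change was 0.21 in untreated cells, where all genes had 0.00. Of 11 listed, 5 rose there, against 5.97% of all genes: DHX58, a RIG-I-like helicase (1.60 ± 0.20, adjusted p = 0.000693), IFIH1, which encodes MDA5 (0.91, 0.0465), IRF7 (0.88, 0.0417), ZC3HAV1 (0.43, 0.0304) and TBK1 (0.21, 0.0359). With the replicate block 1 passed (against 4.76% of all genes), and 1 without the arrays numbered 4 (against 9.64%), DHX58 in both. In tamoxifen 1 rose, DHX58 (1.47), against 6.49% of all genes. RIGI itself changed by 1.26 (adjusted p = 0.0651). For 7 genes of E2 enzymes or E2 variants used by TRIM ligases (of 12 listed), the median change was -0.04 in untreated cells. There 1 fell, UBE2D4, by 0.31, against 5.98% of all genes. In tamoxifen 2 fell, the E2 variant UBE2V2 by 0.34 and UBE2E3 by 0.22, against 8.71% of all genes. None of these 3 passed with the replicate block (limma, adjusted p = 0.0902, 0.096 and 0.173), and UBE2E3 did not pass without the arrays numbered 4 (0.0547). UBE2L6, an enzyme of ISG15 conjugation, changed by 0.88 (adjusted p = 0.0674).

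Among 9 partners of the TRIM28 corepressor (median change -0.03 in untreated cells), 2 fell there, against 5.98% of all genes, CBX5, which encodes the heterochromatin protein HP1 alpha, by 0.82 (limma, adjusted p = 0.000637) and CHD3 by 0.32 (0.00754), and CBX5 fell in tamoxifen by 0.92. TRIM28 itself changed by 0.04 and 0.15 and did not pass. Of 20 measured interferon response genes (of 22 listed), 12 rose in untreated cells, with a median change of 1.88, and 8 in tamoxifen, with a median of 1.23. Of all genes, 5.97% rose in untreated cells and 6.49% in tamoxifen. IRF1, MX1, MX2, OASL, ISG20, IFI35, HERC5 and IFNB1 rose in both, and IFIT2, ISG15, RSAD2 and CXCL10 in untreated cells. With the replicate block the counts of this list were 7 and 2, against 4.76% and 2.7% of all genes called in either direction. Without the arrays numbered 4 they were 7, with a median of 0.98, and 9, against 9.64% and 13.1%. Of 7 TRIM-related genes outside the 54 members, the median change was -0.06 in untreated cells, and 0 rose and 1 fell, against 5.97% and 5.98% of all genes. That gene was TRIM24, a nuclear receptor cofactor, which read 10.54, 10.68, 10.74 and 10.46 on the untreated control arrays and 10.00, 9.77, 9.90 and 10.05 on the SRC1 siRNA arrays, without overlap. It fell by 0.68 ± 0.08 (limma, adjusted p = 0.000602; with the replicate block, 0.008) and in tamoxifen by 0.55 (0.00479; with the replicate block, 0.05004). PML (TRIM19) changed by 0.84 (adjusted p = 0.0635) in untreated cells.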

How the data were processed

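Amplified, biotin-labelled cDNA (NuGEN Ovation) was hybridised, per the labels' protocols. The authors deposited log2 values, 1 per probe set and array, made with R 2.9.2 per the submitters' processing notes. How they were background-corrected, normalized and summarised is not stated in any source used here. That the log base is 2 was judged from the values' spread. Of 54675 probe sets, 62 array controls were left out. Platform annotation gave 1 symbol to 41091 probe sets, several to 1801 and none to 11721. limma 3.58.1 in R 4.3.3 was fitted with 4 group means over 14 arrays, and p-values were adjusted by Benjamini-Hochberg over all 54613 probe sets, with a threshold of 0.05. This was tested on simulated data with independent noise on each array. Such data cannot show whether p-values hold if the deposited arrays are not independent. NCOA1 was also compared by an exact permutation test. Depth is not defined for arrays, and the number of arrays limits the precision.

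Named genes were those that passed in a comparison, TRIM21, TRIM22 and TRIM25, the 5 brightest and 3 dimmest, the 3 with the largest spread about their group means, and genes with another probe set called in the opposite direction. Of other lists, members that passed were named. The members and the 18 lists were chosen with earlier results of these data known. Groups share replicate numbers, but over all probe sets same-numbered arrays deviated in opposite directions (18 pairs, correlations -0.585 to -0.0421, median -0.334). Because the labels do not say what the numbers share, they were not treated as pairing, and the block is an alternative. This opposite deviation over all probe sets did not hold for every gene. TRIM22 read 7.42, 8.78, 8.91 and 6.27 on untreated control arrays 1 to 4, and 7.82, 9.19, 9.41 and 6.57 on tamoxifen control arrays. Within control siRNA its same-numbered arrays thus moved together, as did those of TRIM14, TRIM21, TRIM25 and TRIM69. The mean of the 9 interferon-induced TRIM genes read 9.85, 10.37, 10.49 and 9.66 untreated, and 9.96, 10.41, 10.51 and 9.60 with tamoxifen. In TRIM5 replicate 4 was the highest untreated control and the lowest tamoxifen control. With the replicate block, 0 of 54 TRIM genes and 0 of all genes passed for tamoxifen with control siRNA. Whether a replicate effect was removed before deposit is not stated, and if it was, the arrays are not independent. Alternatives were median centring, quantile normalization, a brighter-probe filter, array weights, a trended robust fit, averaging each gene's probe sets, only the compared groups' arrays, and leaving out each array. Leaving out the arrays numbered 4 was added after seeing the data.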

Additional observations from a re-analysis of the deposited data

Results flagged for a closer look

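The Dixon criterion was checked for 69 groups of 4 arrays over 23 named genes, and flagged 4, while chance flags about 1 in 20. TRIM65 read 8.59 on tamoxifen control replicate 1, below the nearest array at 8.61, and 8.51 on untreated SRC1 siRNA replicate 3, above the nearest at 8.42. TRIM33 read 12.94 on tamoxifen control replicate 2, below the nearest at 13.05. TRIM58 read 1.64 on untreated control replicate 3, above the nearest at 1.59. None of these arrays carried the number 4.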

How the results depend on the processing

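The number of TRIM genes past the threshold between siRNAs in untreated cells was 6, and 3 with the replicate block. In tamoxifen it was 8, 1 with the replicate block and 5 with array weights. Leaving out 1 array at a time gave 3 to 9 in untreated cells, with 3 without control untreated replicate 1 and 9 without control tamoxifen replicate 4. In tamoxifen it gave 1 to 8, with 1 without SRC1 siRNA tamoxifen replicate 1, 4 without replicate 3 and 5 without control tamoxifen replicate 2. For tamoxifen against untreated cells it gave 0 to 0 with control siRNA and 0 to 1 with SRC1 siRNA (1 without SRC1 siRNA tamoxifen replicate 3), and 0 to 1 for the interaction (1 without control tamoxifen replicate 1). The change of TRIM10 in tamoxifen reversed to 0.0026 with the mean of its probe sets (limma, adjusted p = 0.979). TRIM7 passed under every alternative in both siRNA comparisons. Over all probe sets, 7350 were called between siRNAs in tamoxifen, 3147 of them higher, and after median centring 8019, with 2653 higher. With the replicate block 1224 were called in tamoxifen, and 2154 in untreated cells in place of 5653. The cause of these differences was not tested. With 2 SRC1 siRNA arrays in tamoxifen, calls there rest on the spread shared with the other groups, and leaving one out leaves a lone array assumed to vary like them. Probe sets near background, such as that of TRIM10, give compressed changes.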
